A study of Mus musculus with 9 samples.

Results

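Adora3, Dap, Chp1, Riok3, Anxa4, Map2k5, Hdac1, Parp10, Mfhas1 and Rwdd3 are 10 genes from the negative regulators of the Toll-like receptor and NF-kB pathways that the study listed as sensitive to its treatments. They were set apart here, not by the study, as members less known as NF-kB inhibitors. They were taken as the 10 of 46072 genes of the deposited tables with these symbols, each with 1 row per table and each protein coding. The study had picked them from the libraries described here, and they were chosen by expression that was lower after vancomycin and raised again after L654, so all of their group differences below are a description of that choice, no test is drawn from them, and nothing about the pattern is independent of it.

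The libraries held RNA of splenic monocytes from female C57BL/6 mice stated to be 8 to 10 weeks old, with 3 mice in each of 3 groups and 1 library per mouse. Con mice were gavaged with water while Van mice got vancomycin, which kills gut bacteria, as 2 gavages of 1 mg a day (2 mg in all per mouse) for 6 days, and both were then rested, for 6 to 8 days by the labels and for 8 days by the study's account of these mice. VanLip mice had the same vancomycin course and rest, and in addition L654, a lipodipeptide of Bacteroidota bacteria that signals through the receptor TLR2, injected behind the eye on days 7, 9 and 11, or rest days 0, 2 and 4. The methods give doses of 2.5 or 5 micrograms per injection for the protocol as a whole, without saying which these mice received. For the sequenced mice the study refers to its timeline of the L654 experiments, in which mice not given L654 were injected with PBS as vehicle on the same rest days. Its description of the Con and Van mice themselves and the labels name an injection for VanLip only, so whether Con and Van were injected is not settled by these sources, and if they were not, injection itself and L654 cannot be told apart. The comparison of Van with Con asked whether a gut community short of such lipids alters monocyte inhibitors, and the comparison of VanLip with Van asked whether adding back 1 lipid does so.

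NF-kB is a family of paired transcription factors held in the cytoplasm by IkB proteins. Ligands of TLR2 act through MyD88 to the IKK complex, which marks IkB for destruction and so lets the factors into the nucleus, where they switch on cytokine genes and their own inhibitors. The genes described here act at scattered points of that path. Among them are a cell surface receptor, a regulator near the Toll-like receptors, calcium-binding proteins and kinases. Others are an enzyme that modifies proteins by ADP-ribosylation, a protein that promotes attachment of SUMO, and a deacetylase that acts on chromatin and on NF-kB itself.

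The depth of the libraries followed the groups. Summed expected counts were 43070361 to 61383806 in Con and Van and 170503470 to 184720704 in VanLip. The commonest low count was 1.33 in Con and Van and 2.00 in VanLip, which corresponds to reads of 100 and 150 bases and to 16151327 to 23018836 against 42625870 to 46180125 sequenced fragments, so depth and the VanLip treatment cannot be told apart in any comparison with VanLip. The labels and methods state reads of 100 bases without separating groups, so the 150 bases of VanLip, and the fragment numbers that rest on it, are inferences from the counts. All 9 monocyte markers were present, with summed FPKM (fragments divided by transcript length and library depth) of 9524 to 10122 in Con, 8133 to 9915 in Van and 9603 to 11139 in VanLip, and a purity of 90% was stated for the isolation. Summed erythroid markers were 99.8 to 203 in Con, 343 to 773 in Van and 279 to 1164 in VanLip. NK cell markers summed to 9.84 to 14.2 in Con, 4.48 to 7.67 in Van and 6.25 to 9.13 in VanLip. Klrk1 made up most of that sum, at 9.47 to 13.7 in Con, 4.16 to 7.45 in Van and 5.86 to 8.71 in VanLip.

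Single markers moved where such sums did not show it, since Lyz2 made up 79.0% to 83.2% of the monocyte sum. Ccr2, the chemokine receptor of inflammatory monocytes, had an FPKM of 173, 163 and 159 in Con, 70.4, 93.0 and 98.2 in Van, and 256, 156 and 190.3 in VanLip. It was lower in Van than in Con by a log2 fold change of -0.83 (DESeq2 adjusted p = 0.000480, lost without Con replicate 1 at -0.81) and higher in VanLip than in Van by 1.04 (adjusted p = 7.38e-07), the directions for which the 10 genes were picked. Of the other monocyte markers, Cx3cr1 was higher in VanLip than in Van by 0.43 (adjusted p = 0.00264), and Ly6c2 by 0.39 (adjusted p = 0.0262), the latter lost without Van replicate 1 (0.30) or 2 (0.32) or VanLip replicate 2 (0.40) or 3 (0.35). Lyz2, Itgam, Fcgr1, Spn, Csf1r and Cd14 were not called in any contrast. Csf1r and Cd14 were at 0.08 and 0.28 in Van against Con and at -0.10 and -0.46 in VanLip against Van. Lyz2, Itgam, Fcgr1 and Spn were below 0 in the first contrast and above 0 in the second. The dendritic cell marker Clec9a was lower in Van than in Con by -1.12 (adjusted p = 1.55e-05) and higher in VanLip than in Van by 0.67 (adjusted p = 0.0164), the second lost without Van replicate 2 (0.60) or VanLip replicate 1 (0.47), while Xcr1 was lower in Van by -0.85 (adjusted p = 0.00897), lost without Con replicate 2 (-0.80) or 3 (-0.80) or Van replicate 2 (-0.76), and in VanLip against Con by -0.73 (adjusted p = 0.0182), lost without Con replicate 2 (-0.68) or 3 (-0.67) or VanLip replicate 1 (-0.66) or 3 (-0.65). The red pulp macrophage marker Vcam1 went the other way, at 0.46 in Van against Con (adjusted p = 0.0106), lost without Con replicate 1 (0.37) or 3 (0.47) or Van replicate 2 (0.37), and at -0.50 in VanLip against Van (adjusted p = 0.00176). Among the remaining lists, 5 of 7 erythroid markers were higher in Van than in Con, each call being lost in 3 to 7 of the 9 fits that left out 1 library, and all 7 in VanLip than in Con. Of these 7 calls, that of Slc4a1, at 2.48 (adjusted p = 0.0498), held in 2 of the 9 fits, being lost without Con replicate 1 or 3, any 1 Van replicate, or VanLip replicate 2 or 3 (1.99 to 2.48), and the others held in all 9. Of 5 NK cell markers Klrk1 alone was called. It was lower than in Con in Van by -0.91 (adjusted p = 0.000471) and in VanLip by -0.74 (adjusted p = 0.00543), the second lost without Con replicate 1 (-0.58) or VanLip replicate 2 (-0.63). The others had a mean FPKM under 1. In Van against Con, Ncr1 (-1.80) and Gzma (-1.10) were below 0, and Klrb1c (0.43) and Prf1 (1.36) were above it. The plasma cell marker Sdc1 had the directions for which the 10 genes were picked. It was lower in Van than in Con by -0.71 (adjusted p = 0.0247), lost without Con replicate 2 (-0.60) or 3 (-0.61) or Van replicate 2 (-0.72) or 3 (-0.60), and higher in VanLip than in Van by 0.70 (adjusted p = 0.0144), lost without Van replicate 2 (0.70) or 3 (0.58) or VanLip replicate 1 (0.59). Of 6 neutrophil markers, Mmp9 was lower in VanLip than in Con by -1.61 (adjusted p = 0.0188), lost without Con replicate 2 or 3 or VanLip replicate 1 or 2 (-1.70 to -1.26), and Ngp by -1.94 (adjusted p = 0.0373), lost without any 1 Con replicate or VanLip replicate 1 or 2 (-2.07 to -1.62). The part of these cells in the levels of the 10 genes was not tested. In bulk RNA, fewer cells of a type and less RNA per cell cannot be told apart.

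Promoter sequences are shown for 4 of these genes because they hold, near the start, a match to the kappaB site bound by NF-kB or to the AP-1 site TGANTCA. RefSeq windows on GRCm38.p6, from 250 bases before the annotated start to 50 after it, were searched for 6 of the 10 genes. There were 7 windows, since Anxa4 had 2. No window of Riok3, Hdac1, Parp10 or Mfhas1 was searched, so nothing is stated about sites in their promoters. The 250 bases before the start are printed in the direction of transcription, with the match in capitals, for Rwdd3 at chr3:121171696-121171945 on the minus strand, for the upstream Anxa4 start at chr6:86793585-86793834 on the minus strand, for Adora3 at chr3:105904171-105904420 on the plus strand, and for Chp1 at chr2:119547457-119547706 on the plus strand.
Rwdd3: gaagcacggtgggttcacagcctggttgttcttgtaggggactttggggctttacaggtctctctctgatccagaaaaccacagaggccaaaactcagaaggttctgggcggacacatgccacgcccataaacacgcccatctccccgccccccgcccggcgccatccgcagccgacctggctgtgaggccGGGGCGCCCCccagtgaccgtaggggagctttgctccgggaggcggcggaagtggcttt
Anxa4: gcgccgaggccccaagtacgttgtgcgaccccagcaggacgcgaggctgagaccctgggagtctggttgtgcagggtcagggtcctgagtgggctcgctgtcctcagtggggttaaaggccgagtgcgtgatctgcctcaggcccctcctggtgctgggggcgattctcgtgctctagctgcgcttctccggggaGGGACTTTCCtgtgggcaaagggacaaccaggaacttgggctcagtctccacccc
Adora3: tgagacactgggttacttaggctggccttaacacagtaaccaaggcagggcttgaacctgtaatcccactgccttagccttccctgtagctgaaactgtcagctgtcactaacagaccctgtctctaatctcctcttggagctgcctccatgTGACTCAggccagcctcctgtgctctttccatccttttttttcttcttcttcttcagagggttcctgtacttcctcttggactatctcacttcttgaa
Chp1: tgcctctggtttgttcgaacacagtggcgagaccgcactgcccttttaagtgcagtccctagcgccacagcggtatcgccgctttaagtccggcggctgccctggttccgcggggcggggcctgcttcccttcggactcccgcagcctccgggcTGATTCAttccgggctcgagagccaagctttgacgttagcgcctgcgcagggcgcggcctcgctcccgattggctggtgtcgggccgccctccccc

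The kappaB consensus, searched on both strands, was matched in the windows of Rwdd3 and Anxa4 only, 2 of 6 genes, and in 8.46% of all 32851 windows. The Rwdd3 match began 59 bases before the start and reads the same on both strands, and the Anxa4 match began 55 bases before it. AP-1 was matched in Adora3, 98 bases before the start, and in Chp1, 96 bases before it, against 7.81% of all windows. The GC box GGGCGG was in 5 of the 6 genes, Adora3 being the exception, against 35.7% of windows, and CCAAT was in Chp1 against 37.4%. No window of these genes held the ISRE core of TTTC, any pair of bases and TTTC (in 3.44% of all windows), CACGTG (7.15%), TGACGTCA (1.79%) or TATAAA (13.6%). The windows were mostly rich in G and C, with 69.3% for Dap, 66.7% for Chp1, 65.3% for the upstream Anxa4 start, 64.0% for Rwdd3 and 59.7% for Map2k5, while Adora3 held 48.3% and the downstream Anxa4 start 43.0%, beside a median of 52.7% over all windows. They held 32 CpG dinucleotides in Dap and 30 in Chp1, against 1 in Adora3 and a median of 7. A match is a description of letters and not evidence that a factor is bound.

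The 10 genes spanned a wide range of levels, which are compared per length, as FPKM over all 9 libraries. Chp1 (mean 47.5) and Dap (42.6) were highest, and their libraries overlapped, at 44.8 to 53.9 and 40.7 to 52.2. Riok3 (31.9), Hdac1 (29.3) and Anxa4 (28.9) came next, with overlapping libraries from 26.8 to 35.6 in all. Parp10 (13.8), Map2k5 (8.52) and Mfhas1 (2.23) followed, each without overlap with its neighbours in the order. Adora3 and Rwdd3 (0.375) were lowest, both under 1, and overlapped each other.

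**Figure D1:**
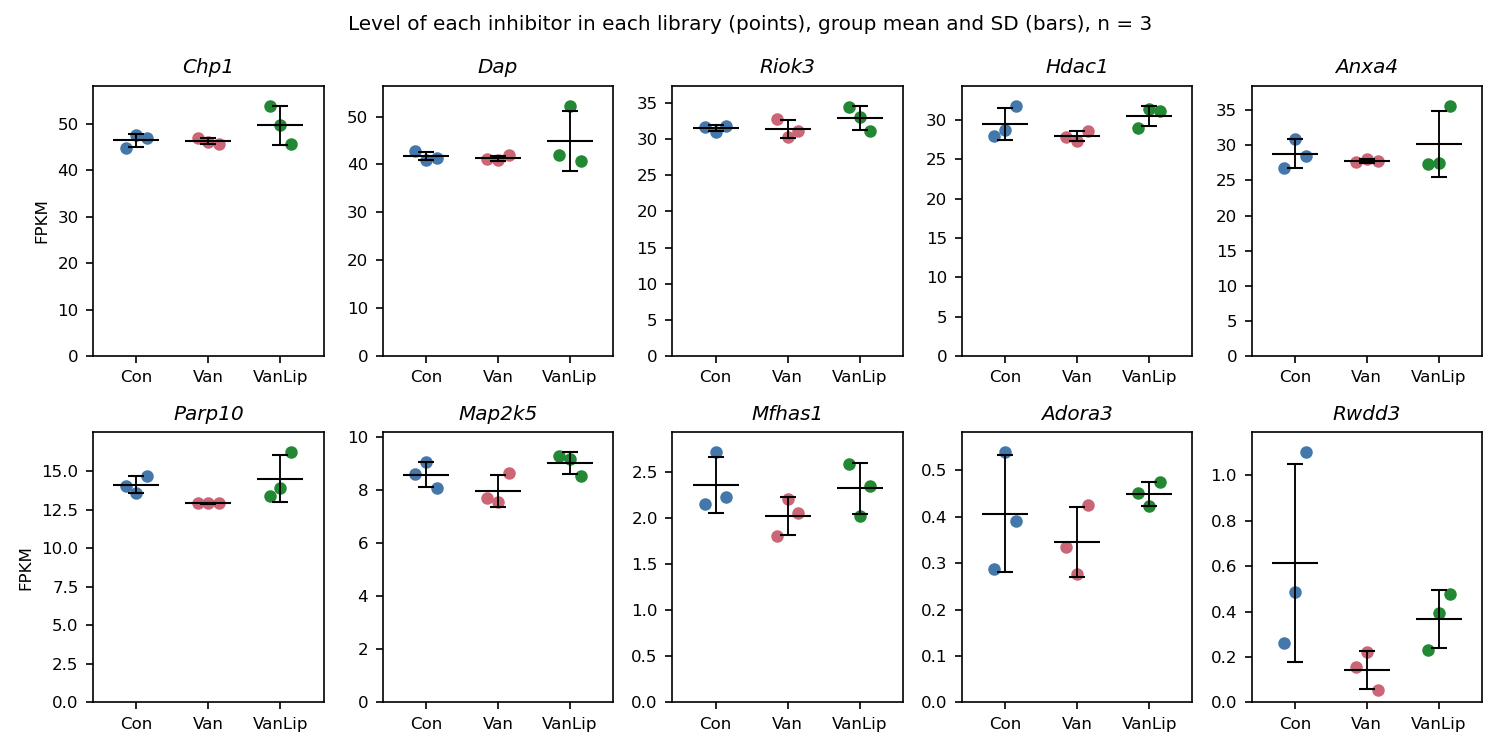
FPKM (vertical axis, from 0, on a separate scale for each gene) of the 10 genes in each library of Con, Van and VanLip. Points are libraries, horizontal lines are group means and bars are SDs, n = 3. Most genes differ little between groups relative to their level, while in Rwdd3 the Van libraries lie between 0.0537 and 0.220 and the Con libraries between 0.260 and 1.10.

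Differences between groups were small for most of the 10 genes. In Van against Con, 9 of the 10 fitted log2 fold changes were below 0, with a median of -0.11 beside -0.01 over all genes. In VanLip against Van all 10 were above 0, with a median of 0.15 beside 0.01. In VanLip against Con 8 were above 0 and 2 below, with a median of 0.03 beside 0.01. These signs are what the genes were picked for. The signs lower in Van and then higher in VanLip held for 9 of the 10, Chp1 being the exception, and for 31.5% of 25441 genes. That count was 8 without Con replicate 2, where Adora3 gave 0.06 in Van against Con, 8 without Van replicate 2, where Riok3 gave 0.02, and 8 without VanLip replicate 3, where Anxa4 gave -0.01 in VanLip against Van. Both contrasts use the Van libraries, so a low Van value enters both with opposite signs.

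With the DESeq2 Wald test and Benjamini-Hochberg adjustment over all genes, 1 of the 10, Rwdd3, had an adjusted p of 0.05 or under in Van against Con, where it was lower, beside 4.34% of all genes tested in either direction and 2.06% lower. None did in VanLip against Con, where 6.67% of genes were called, or in VanLip against Van, where 9.86% were called. At an unadjusted p under 0.05, 2 were lower in Van than in Con, beside 5.49% of genes, and 2 were higher in VanLip than in Van, beside 7.70%, Parp10 and Rwdd3 in both cases. None had such a p in VanLip against Con, where no share of all genes is given. edgeR called none of the 10 in any contrast, with 2, 0 and 3 at an unadjusted p under 0.05 in Van against Con, VanLip against Con and VanLip against Van, and it called 0.743%, 1.14% and 2.86% of all genes. limma on log2(FPKM + 1) also called none, with 1, 0 and 1 at an unadjusted p under 0.05, beside 0.352%, 0.908% and 2.64% of all genes called. In normalized counts, which are scaled for library size, all 3 Van libraries lay below all 3 Con libraries for Hdac1, Parp10 and Rwdd3, beside 10.8% of the 16830 genes with a mean of at least 10. All 3 VanLip libraries lay above all 3 Van libraries for the same 3 genes, beside 13.3%. None of the 10 separated VanLip from Con. No share of all genes is given for that contrast, so this is not read as a return to the Con level. Since the contrasts chose the genes, nothing is read from these counts.

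**Figure D2:**
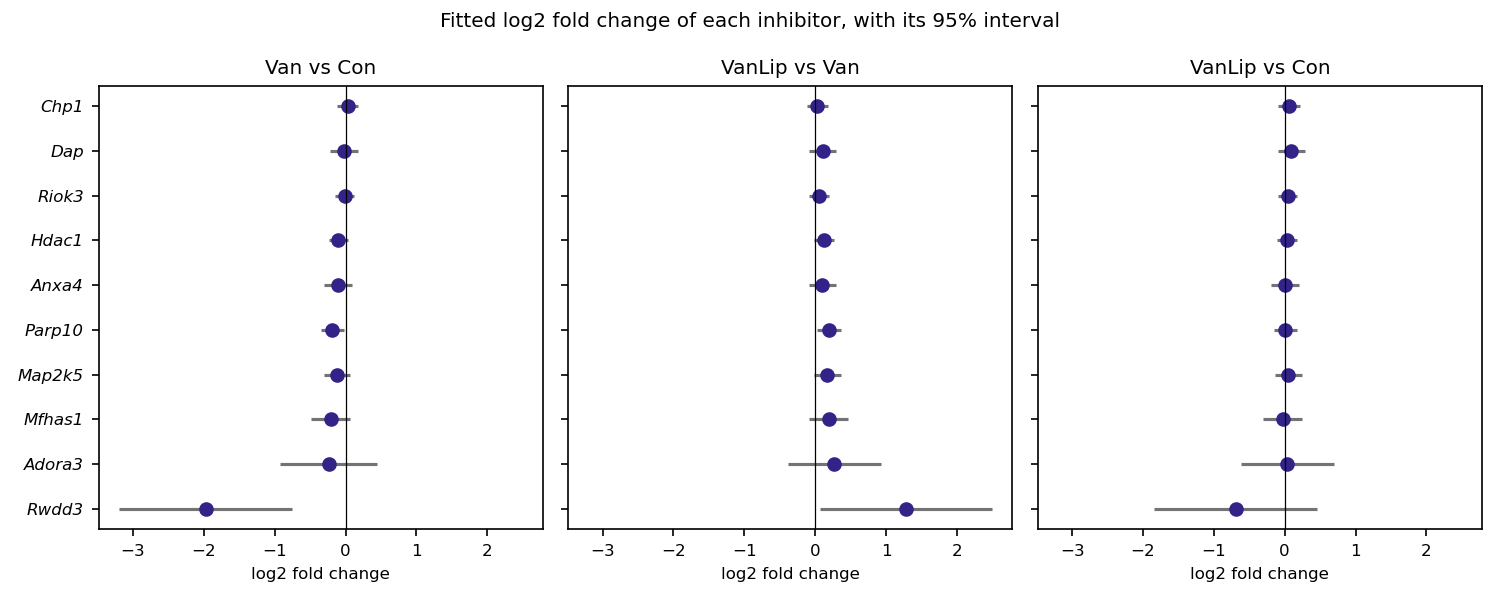
Fitted log2 fold change (horizontal axis) of each gene in the 3 contrasts, with points for the estimate and lines for its 95% interval. Intervals are narrow and close to 0 for the abundant genes and wide for Adora3 and Rwdd3, and only Rwdd3 and Parp10 have intervals clear of 0, in Van against Con and in VanLip against Van.

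Adora3 (ENSMUSG00000000562, chr3:105870858-105908926 on GRCm38, plus strand) encodes the A3 adenosine receptor, a surface receptor coupled to inhibitory G proteins. Its normalized counts were 61.8, 123 and 85.4 in Con, 74.8, 58.1 and 96.4 in Van, and 99.4, 91.5 and 86.9 in VanLip. The groups overlapped in every contrast, and the widest group was Con, whose replicate 2 held the highest count of all. The log2 fold change was -0.24 (SE 0.35) in Van against Con and 0.27 (SE 0.33) in VanLip against Van. The first became 0.06 without Con replicate 2 and -0.45 without Con replicate 1. The second was 0.11 without Van replicate 2 and 0.48 without Van replicate 3, and VanLip against Con ranged from -0.18 to 0.34 with 1 library left out. Only 13.9 to 54.9 sequenced fragments stood behind a library. Adora3 shares its strand and part of its span with Tmigd3, whose own normalized counts were 27.8 to 42.7 in Con, 17.0 to 37.7 in Van and 14.6 to 26.6 in VanLip, so reads could be divided between the 2 genes. Markers of eosinophils, basophils and mast cells, which also carry this receptor, summed to an FPKM of 1.05 to 2.22 in Con, 1.00 to 1.45 in Van and 0.803 to 1.78 in VanLip. The negative selection described in the methods removes cells with CD117 or Siglec F, surface proteins of mast cells and eosinophils, and the part of any that remained was not tested.

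Mfhas1 (ENSMUSG00000070056, chr8:35587798-35679449, plus strand) encodes a large leucine-rich repeat protein of the ROCO family that dampens Toll-like receptor signalling. In normalized counts it stood at 1285, 1565 and 1284 in Con, 1031, 1293 and 1253 in Van, and 1511, 1192 and 1368 in VanLip. Each group overlapped the other 2, with 1 high library in Con and 1 low library in Van. It gave a log2 fold change of -0.21 (SE 0.14) in Van against Con and 0.19 (SE 0.14) in VanLip against Van. Without Con replicate 2 the first fell in size to -0.11, and without Van replicate 1 the second was 0.09. The antisense transcript Gm16793 on the other strand had at most 24.1 normalized counts.

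Anxa4 (ENSMUSG00000029994, chr6:86736840-86793584, minus strand) encodes annexin A4, which binds membrane phospholipids when calcium is present and has been described as a partner of the NF-kB subunit p50. Its normalized counts were 5779, 5997 and 5948 in Con, 5335, 5322 and 5852 in Van, and 5277, 5693 and 6768 in VanLip. VanLip held both the lowest and the highest of the 9 libraries. The log2 fold change was -0.10 (SE 0.10) in Van against Con, and the 0.10 (SE 0.10) of VanLip against Van rested on VanLip replicate 3, without which it was -0.01.

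Chp1 (ENSMUSG00000014077, chr2:119547697-119587027, plus strand) encodes calcineurin B homologous protein 1, a calcium-binding inhibitor of the phosphatase calcineurin and a partner of sodium-proton exchangers. Normalized counts of Chp1 were 11926, 12557 and 11610.0 in Con, 12477, 12280.2 and 12039 in Van, and 13723, 12260.2 and 11611 in VanLip. Chp1, the most abundant of the 10 genes, was even across groups, with a log2 fold change of 0.03 (95% interval -0.12 to 0.18) in Van against Con and 0.03 (-0.12 to 0.18) in VanLip against Van. Without VanLip replicate 1, the highest library, the second was -0.04.

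Map2k5 (ENSMUSG00000058444, chr9:63163768-63377902, minus strand) encodes MEK5, the kinase that activates ERK5. Map2k5 normalized counts were 1922, 2015 and 1765 in Con, 1709, 1632 and 1909 in Van, and 2059, 1985 and 1862 in VanLip. Van replicate 3 lay among the Con and VanLip libraries, while the other Van libraries were below all of them. Map2k5 gave a log2 fold change of -0.12 (SE 0.10) in Van against Con and 0.17 (SE 0.10) in VanLip against Van, ranging over fits without 1 library from -0.19 to -0.07 and from 0.12 to 0.24.

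Riok3 (ENSMUSG00000024404, chr18:12128741-12157387, plus strand) encodes an atypical RIO kinase that acts on the viral RNA sensor MDA5 and has a role in red cell maturation. Normalized counts of Riok3 were 11224, 10926 and 10975 in Con, 11558, 10359.8 and 10871 in Van, and 12086, 11334 and 10758 in VanLip. The groups overlapped, with log2 fold changes of -0.01 (95% interval -0.15 to 0.12) in Van against Con and 0.06 (-0.08 to 0.20) in VanLip against Van. Without Van replicate 2 the first was 0.02, and without Van replicate 1 it was -0.06. The second was 0.01 without VanLip replicate 1 and 0.10 without Van replicate 1. Erythroid markers were higher in every Van and VanLip library than in any Con library, by the sums given above, and their part in the level of Riok3 was not tested.

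Dap (ENSMUSG00000039168, chr15:31224314-31274341, plus strand) encodes death-associated protein 1, a target of the mTOR kinase that restrains autophagy. Dap had normalized counts of 6372, 6126 and 6046 in Con, 6121, 5899 and 6215 in Van, and 6217, 7573 and 5948 in VanLip. A single library, VanLip replicate 2, stood above the rest. Dap gave a log2 fold change of -0.02 (SE 0.10) in Van against Con and 0.11 (SE 0.10) in VanLip against Van, and without VanLip replicate 2 the second was 0.00.

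Parp10 (ENSMUSG00000063268, chr15:76231174-76243441, minus strand) encodes an enzyme that attaches single ADP-ribose units to proteins and limits ubiquitin marking of the IKK subunit NEMO. Its normalized counts were 4323, 4200.2 and 4398 in Con, 3853, 3745 and 3749 in Van, and 4099, 4089 and 4800.2 in VanLip. The Van libraries were the lowest 3 of the 9 and close to each other, and their mean was 12.2% below that of Con. FPKM gave the same order, at 14.1 ± 0.553 (SD, n = 3) in Con, 12.9 ± 0.0282 in Van and 14.5 ± 1.52 in VanLip. The log2 fold change was -0.19 (SE 0.08) in Van against Con, and between -0.21 and -0.17 with any 1 library left out. In VanLip against Van it was 0.19 (SE 0.08), and 0.11 without VanLip replicate 3. Plec, which overlaps Parp10 on the same strand, had 23438 to 30886 normalized counts in Van and 23621 to 25924 in Con.

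Rwdd3 (ENSMUSG00000028133, chr3:121155398-121171695, minus strand) encodes RSUME, a small RWD-domain protein that promotes attachment of SUMO to its targets, IkB among them. Its normalized counts were 35.5, 62.7 and 141 in Con, 21.0, 31.4 and 8.50 in Van, and 32.5, 51.7 and 63.5 in VanLip. Each Van library was below each Con library, but Con spread widely, and the lowest VanLip library exceeded the highest Van library by about 1 count. The log2 fold change of -1.97 (SE 0.62, 95% interval -3.20 to -0.75) in Van against Con was far larger than that of any other of the 10 genes, and it was 1.29 (SE 0.62) in VanLip against Van and -0.69 (SE 0.59) in VanLip against Con.

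Few reads stood behind Rwdd3. The estimated fragments were 8.81, 17.5 and 28.4 in Con, 6.03, 7.42 and 2.15 in Van, and 17.9, 28.3 and 38.1 in VanLip, in sum 54.6, 15.6 and 84.2. The VanLip libraries, the most deeply sequenced, held the most fragments in sum, while both values scaled for depth, the normalized count and the FPKM, had a lower mean in VanLip than in Con (FPKM 0.367 against 0.614), with overlapping libraries. Left out in turn, Con replicate 3 brought the log2 fold change of Van against Con to -1.29 and Van replicate 2 to -2.42. VanLip against Con went from -0.69 to 0.00 without Con replicate 3 and to -1.04 without Con replicate 1, and VanLip against Van ranged from 0.92 to 1.73. Of 18 alternative fits with Rwdd3, its call remained in 5, was lost in 8 and had no adjusted p in 5, where DESeq2 set the gene aside for its low counts. Leaving out Con replicate 3 (-1.29), Van replicate 3 (-1.60) or VanLip replicate 2 (-1.98) lost the call, and it had no adjusted p without Con replicate 2 (-2.12), Van replicate 1 (-2.00) or VanLip replicate 3 (-1.97). The replicate SD of the FPKM in Con, 0.434 around a mean of 0.614 (n = 3), was larger than the mean level in Van, 0.143 ± 0.0837.

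**Figure D3:**
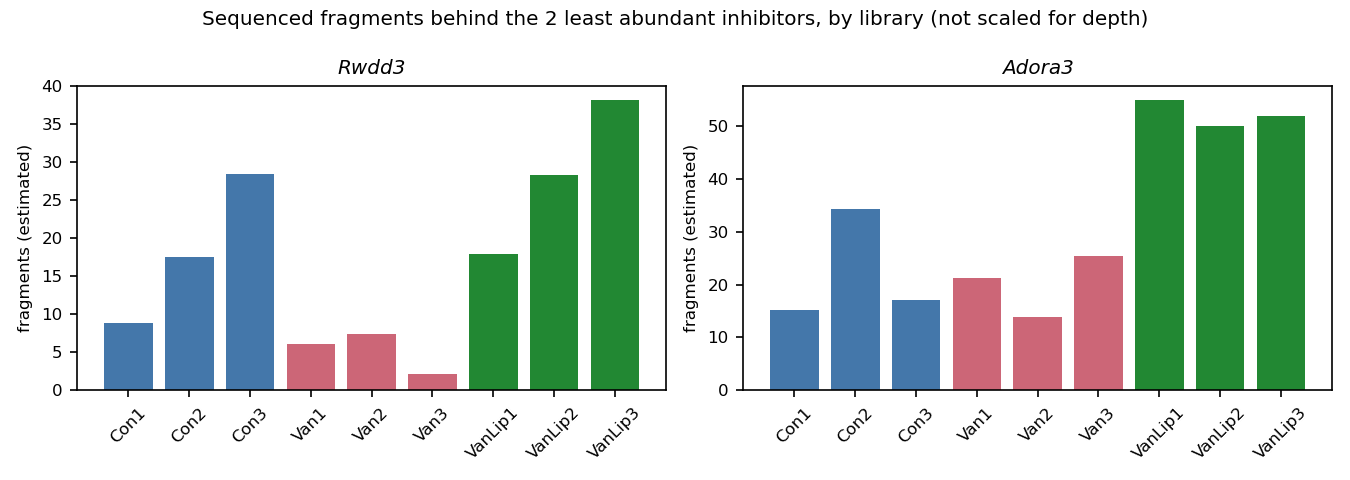
Estimated sequenced fragments (vertical axis, from 0, not scaled for depth) for Rwdd3 and Adora3 in the 9 libraries, 1 bar per library. Rwdd3 had at most 7.42 fragments in a Van library and 2.15 in Van replicate 3, and the VanLip libraries, which are deeper, had 17.9 to 38.1.

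Hdac1 (ENSMUSG00000028800, chr4:129516104-129542713, minus strand) encodes a class I histone deacetylase that silences chromatin within the Sin3, NuRD and CoREST complexes and is recruited by NF-kB p50. Its normalized counts were 5044, 5103 and 5606 in Con, 4904, 4746 and 5034 in Van, and 5129.9, 5492 and 5473 in VanLip. The highest Van library was just below the lowest Con library, and in FPKM these groups overlapped, since Van replicate 3 (28.6) was above Con replicate 1 (28.0). The log2 fold change was -0.10 (SE 0.07) in Van against Con, between -0.13 and -0.05 with any 1 library left out, and 0.13 (SE 0.07) in VanLip against Van.

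Within groups, the 10 genes varied in both directions relative to each other. After each group's mean of log2(FPKM + 1) was removed, Pearson correlations over the 9 libraries were -0.84 to 0.82 for the 45 pairs, with a median of -0.02, and 22 were above 0. Of these, 6 were above 0.5, among them Hdac1 with Rwdd3 (0.82), Anxa4 with Parp10 (0.76) and Chp1 with Riok3 (0.75), and 8 were below -0.5, among them Chp1 with Parp10 (-0.84) and Riok3 with Anxa4 (-0.75). All pairs share the same libraries and their depth, and the correlations are descriptions with no test.

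**Figure D4:**
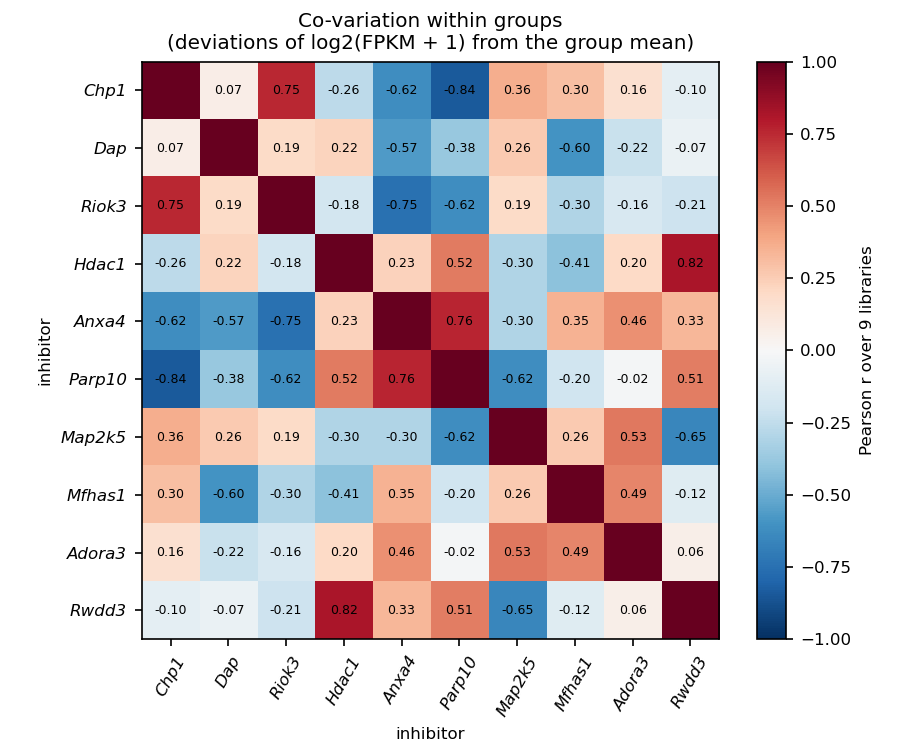
Pearson r over 9 libraries (colour and printed value) for each pair of genes, rows and columns, computed on deviations of log2(FPKM + 1) from the group mean. Positive and negative pairs are about equally frequent, 22 of 45 being above 0.

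Averaged over the 10 genes as z-scores of quantile-normalized log2(FPKM + 1), the level was -0.19, 0.68 and 0.24 in Con and 0.53, 0.26 and 0.45 in VanLip. The 3 Van libraries were lowest, the highest of them at -0.39, as the choice of genes fixes. Among 11701 genes with a mean FPKM of at least 1, the profiles most like this average over the 9 libraries were those of Ranbp9 (Pearson r 0.989), Exosc9 (0.960), Ttc5 (0.944), Taf1b (0.942) and Pdhx (0.936).

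Relatives of the 10 genes, which the rule had not used, were then examined as a list of 109 genes of the same families, complexes and pathways, of which 108 were in the tables, 107 were detected and 106 had an adjusted p. In Van against Con 2 were called and both were lower, 1.89% beside 4.34% of all genes. In VanLip against Con 10 were called, 3 higher and 7 lower, 9.43% beside 6.67%. In VanLip against Van 12 were called, 3 higher and 9 lower, 11.3% beside 9.86%. The median log2 fold change of the list was 0.00, -0.02 and 0.00 in these contrasts, beside -0.01, 0.01 and 0.01 over all genes. Anxa3 and Ikbkg were the only genes of the list called lower in Van and higher in VanLip than in Van. All p-values below are adjusted p from the DESeq2 Wald test, n = 3 per group.

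**Figure D5:**
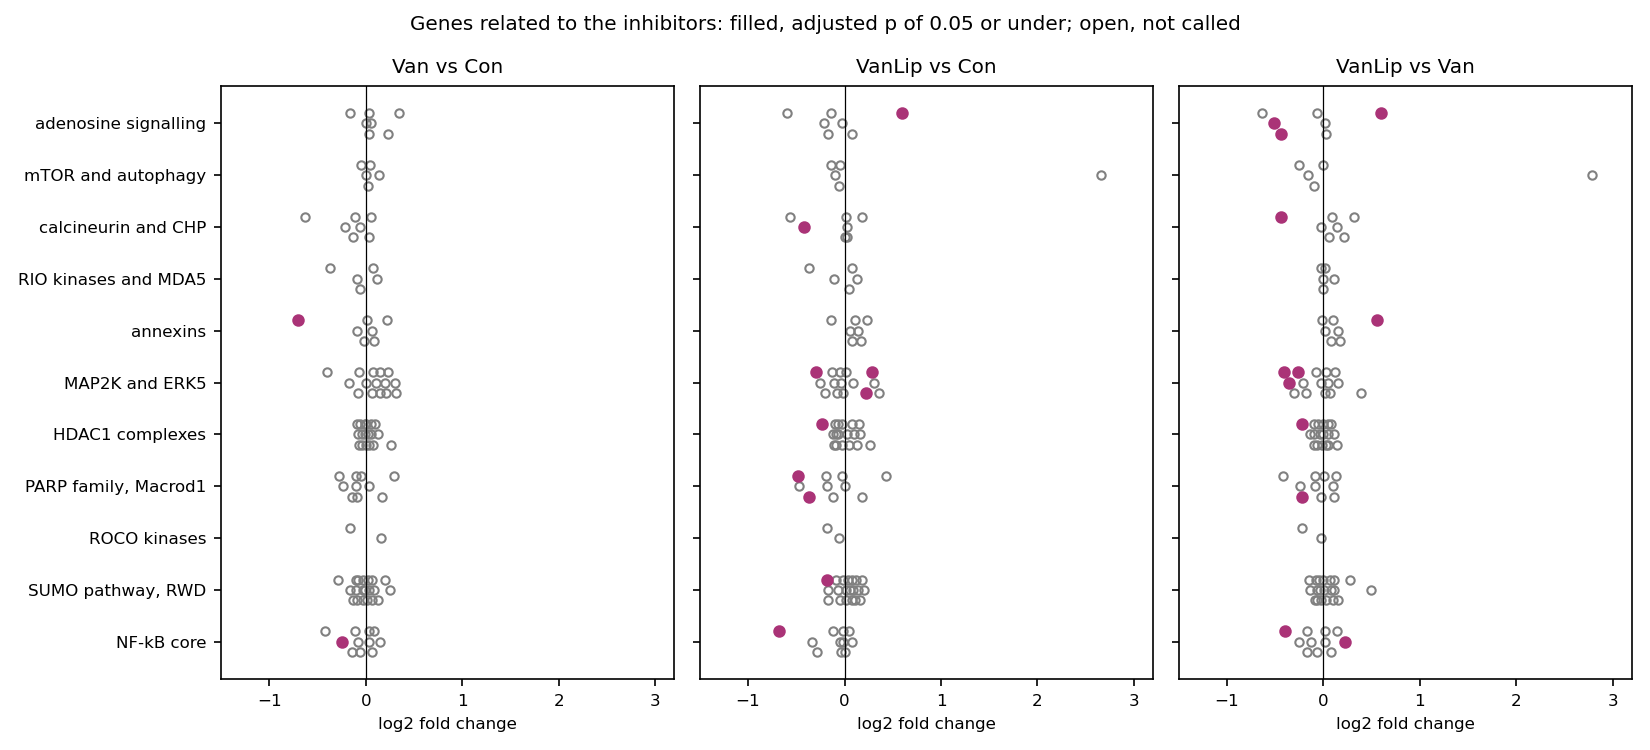
Fitted log2 fold change (horizontal axis) of the related genes by list, in the 3 contrasts. Filled points are the genes with an adjusted p of 0.05 or under, 2 in Van against Con, 10 in VanLip against Con and 12 in VanLip against Van, and the open point far to the right is Dapl1, listed at 0 in all libraries but 1.

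Among the 8 genes of adenosine signalling, none was called in Van against Con, 1 was called in VanLip against Con and 3 in VanLip against Van. Adora2a, the A2a receptor, which raises cyclic AMP and restrains myeloid activation, had an FPKM of 7.87, 6.08 and 8.22 in Con, 8.74, 6.92 and 6.57 in Van, and 10.3, 11.5 and 12.0 in VanLip. It rose in VanLip against Van by a log2 fold change of 0.60 (SE 0.14, adjusted p = 0.00107) and against Con by 0.60 (adjusted p = 0.00188), and both calls held with any 1 library left out. Adora2b, the lower-affinity A2b receptor, fell by 0.51 on the log2 scale in VanLip against Van (adjusted p = 0.0387), with an FPKM of 3.64 to 4.96 in Van and 2.48 to 3.55 in VanLip. That call was lost without Con replicate 2 or 3, Van replicate 2 or 3, or VanLip replicate 1 or 3, with values from -0.56 to -0.37. Entpd1, the surface enzyme CD39 that breaks down ATP, fell by 0.44 (adjusted p = 0.00709), and without Van replicate 3 the call was lost at -0.41. Adora1 was listed at 0 in every library.

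Annexins other than Anxa4 numbered 7, of which Anxa3 alone was called. Anxa3, annexin A3 of myeloid granules, had an FPKM of 35.9, 29.2 and 39.2 in Con, 20.4, 21.8 and 20.8 in Van, and 39.9, 26.8 and 32.2 in VanLip. The Van libraries were lower than all others, with a log2 fold change of -0.70 (SE 0.14, adjusted p = 8.55e-05) against Con and 0.56 in VanLip against Van (SE 0.14, adjusted p = 0.00148). Both calls held with any 1 library left out. Neutrophil markers summed to an FPKM of 4.57 to 11.6 in Con, 2.15 to 10.7 in Van and 3.17 to 4.96 in VanLip, with Ly6g at 0 in all libraries, and Mmp9 and Ngp were called lower in VanLip than in Con, as given above. The negative selection described in the methods removes cells that carry the Ly6g protein, and the part of any neutrophils that remained was not tested. Anxa5, which binds exposed phosphatidylserine, was not called, at a mean FPKM of 146, 145 and 162 in Con, Van and VanLip.

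Around Map2k5, 15 kinases and ERK5 pathway genes gave no call in Van against Con and 3 in each contrast with VanLip. Map3k2, which activates MEK5, had an FPKM of 7.28 to 7.42 in Con, 7.30 to 8.14 in Van and 5.48 to 6.37 in VanLip. It fell by 0.36 on the log2 scale in VanLip against Van (adjusted p = 0.00141), and against Con by 0.30 (adjusted p = 0.0172), the second lost without any 1 Con replicate or VanLip replicate 2 (values -0.31 to -0.22). Map3k3, its close relative, fell by 0.26 in VanLip against Van (adjusted p = 0.00668), lost without Van replicate 1 at -0.23. Mef2d, a transcription factor activated by ERK5, fell by 0.41 (adjusted p = 0.00306) and kept its call with any 1 library left out. Mapk7, which encodes ERK5 itself, had an FPKM of 12.3 to 13.5 in Con, 14.3 to 15.6 in Van and 14.3 to 16.6 in VanLip and rose in VanLip against Con by 0.28 (adjusted p = 0.0142). That call was lost without Con replicate 1 or 2 or VanLip replicate 1 or 2, with values from 0.23 to 0.26. Map2k2, the ERK kinase MEK2, rose by 0.22 in VanLip against Con (adjusted p = 0.0303), lost without any 1 Con replicate, Van replicate 2 or 3, or VanLip replicate 1 or 2 (values 0.17 to 0.24).

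Of 18 partners of Hdac1 and other class I deacetylases, Gatad2b alone was called. Gatad2b, a NuRD subunit, had an FPKM of 13.4, 14.6 and 13.8 in Con, 14.1, 14.4 and 13.6 in Van, and 11.9, 12.2 and 11.7 in VanLip. It fell in VanLip against Van by 0.22 on the log2 scale (adjusted p = 0.00186) and against Con by 0.23 (adjusted p = 0.00223), the latter lost without Con replicate 2 at -0.19. Hdac2 and Hdac3, the nearest relatives of Hdac1, were not called in any contrast, with mean FPKM of 14.8, 15.7 and 16.1 for Hdac2 and 13.1, 13.1 and 14.6 for Hdac3 in Con, Van and VanLip.

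Among 10 genes of the PARP family and its counterpart Macrod1, a hydrolase that removes ADP-ribose, none was called in Van against Con, Parp14 and Parp11 were lower in VanLip than in Con, and Parp8 was lower in VanLip than in Van, by a log2 fold change of -0.22 (adjusted p = 0.0412) whose call was lost on leaving out any library other than VanLip replicate 3. Parp14, an interferon-induced ADP-ribosyltransferase, had an FPKM of 46.3, 43.6 and 45.4 in Con, 39.3, 38.1 and 38.0 in Van, and 30.6, 27.0 and 41.6 in VanLip. It fell by 0.48 on the log2 scale in VanLip against Con (adjusted p = 0.0103), a call lost without Con replicate 1 (-0.45) or VanLip replicate 2 (-0.35). In contrast to Parp10, its mean in VanLip was below that in Van. Parp11 fell by 0.37 against Con (adjusted p = 0.0385), lost without any 1 Con replicate, Van replicate 1 or 2, or VanLip replicate 1 or 2 (values -0.38 to -0.28). Parp9 had a mean FPKM of 26.3, 24.8 and 24.8 and was not called.

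The SUMO pathway, in which Rwdd3 acts, and the RWD-domain relatives of Rwdd3 made up a list of 20 genes with no call in Van against Con or in VanLip against Van and 1 in VanLip against Con. Senp1, a protease that removes SUMO, fell by 0.18 on the log2 scale in that contrast (adjusted p = 0.0320), and the call was lost on leaving out any 1 of the 9 libraries, with values from -0.20 to -0.15.

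Of 7 genes in the tables around Chp1 and calcineurin, Stk17b was called. Stk17b, the kinase DRAK2, which CHP1 is known to inhibit, had an FPKM of 209, 188 and 193 in Con, 205, 200.3 and 198 in Van, and 148, 165 and 135 in VanLip. All VanLip libraries were below all others, by -0.44 on the log2 scale against Van (SE 0.08, adjusted p = 4.75e-06) and by -0.42 against Con (adjusted p = 4.51e-05), and both calls held with any 1 library left out. The 5 genes of RIO kinases and MDA5 signalling, the 5 genes of mTOR and autophagy and the 2 ROCO kinases Lrrk1 and Lrrk2 gave no call in any contrast. Mean FPKM in Con, Van and VanLip was 7.01, 7.65 and 7.79 for Riok1, 4.60, 4.45 and 4.84 for Riok2, and 21.1, 19.1 and 18.8 for Lrrk2.

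The core of the NF-kB path was listed as 11 genes, a list drawn up with earlier results of these libraries known. In Van against Con, Ikbkg was called, in VanLip against Con Rel, and in VanLip against Van Ikbkg and Nfkbia. Ikbkg encodes NEMO, the regulatory subunit of IKK and the target of Parp10 named above. Its FPKM was 7.34, 8.39 and 9.02 in Con, 6.19, 6.38 and 6.47 in Van, and 7.82, 7.91 and 8.09 in VanLip. It fell by 0.25 on the log2 scale in Van (SE 0.07, adjusted p = 0.0204) and rose by 0.23 in VanLip against Van (adjusted p = 0.0196). The first call was lost without Con replicate 2 or 3 or Van replicate 2 or 3 (-0.26 to -0.22) and the second without any 1 Van replicate or VanLip replicate 1 or 3 (0.20 to 0.25).

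Rel, the c-Rel subunit, had an FPKM of 93.4, 76.5 and 89.1 in Con, 87.7, 59.4 and 47.5 in Van, and 56.1, 50.4 and 57.7 in VanLip. It fell by 0.68 on the log2 scale in VanLip against Con (adjusted p = 0.00585), a call lost without Con replicate 1 or any 1 VanLip replicate (-0.71 to -0.61). Nfkbia, which encodes IkB-alpha and is itself induced by NF-kB, fell by 0.40 in VanLip against Van (adjusted p = 0.0390), with an FPKM of 171 to 229 in Van and 124 to 167 in VanLip. Leaving out Con replicate 3, Van replicate 1 or VanLip replicate 1 or 2 ended that call (-0.41 to -0.25). The subunits Rela and Nfkb1 were not called, at a mean FPKM of 40.6, 42.0 and 42.6 for Rela and 114, 107 and 124 for Nfkb1 in Con, Van and VanLip. Every value with VanLip in these paragraphs carries the difference in depth. With VanLip fragments thinned, the related genes called were 8 in VanLip against Con, beside 4.55% of all genes, and 11 in VanLip against Van, beside 8.69%. Ulk1, a kinase of the autophagy pathway, was newly called in the latter, and 4 calls were lost. For that fit the counts of all libraries were first turned into estimated fragments, which lowered those of Con and Van too, so not only depth was changed. The lost calls were Mapk7 (0.26, adjusted p = 0.0557) and Map2k2 (0.22, adjusted p = 0.0652) in VanLip against Con, and Ikbkg (0.21, adjusted p = 0.0801) and Parp8 (-0.22, adjusted p = 0.0787) in VanLip against Van, so that Anxa3 alone was then called in both directions of the picked pattern. Adora2a, Stk17b, Gatad2b and Map3k2 were called in both contrasts. Thinning cannot undo how reads of another length were aligned, and the part of that was not tested.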

How the data were processed

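RNA of splenic monocytes from 9 mice was sequenced from TruSeq stranded mRNA libraries, with groups given by the titles. The authors, per the labels, aligned reads to GRCm38 with HISAT2 2.2.1 and SAMtools 1.9, and estimated FPKM with StringTie 2.1.3. The authors deposited FPKM values and, through tximport 1.26.1, expected counts per gene, the latter assuming reads of 75 bases, so counts scale with read length. They listed DESeq2 1.38.3. The annotation release was not given in the sources used here. Gene spans came from GENCODE M21.

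Expected counts were rounded and fitted in 1 DESeq2 1.42.0 model of 9 libraries with group as the only term, median-of-ratios size factors, the Wald test and Benjamini-Hochberg adjustment over all genes (R 4.3.3), with calls at an adjusted p of 0.05 or under. The scripts were tested on simulated data. Named were all 10 listed genes, up to 15 related genes called in any contrast by lowest adjusted p, 16 reference genes, of which 1 is not reported here, and the 5 most like profiles. Adora2b, Nfkbia and Mapk7 are among the references, and Parp8, Ulk1, Adora1, Dapl1, overlapping genes and single markers were added after their values were seen. The members and lists were chosen with earlier results of these data known. Alternatives were edgeR 4.0.16, TMM library sizes, a filter of 10 counts in 3 libraries, no independent filtering, a fit limited to the 2 groups of a contrast, a block for replicate number, VanLip fragments thinned, limma 3.58.1 on log2(FPKM + 1) or log2(FPKM + 0.1) or with a mean FPKM of at least 1, and each library left out. The thinned fit used estimated fragments in place of expected counts for all 9 libraries. Same-numbered libraries deviated from their group means with correlations of -0.05 to 0.086, so the numbers were not taken to pair mice. The remaining marker sums in FPKM for Con, Van and VanLip were 9.89 to 12.1, 8.35 to 10.3 and 10.2 to 12.4 for B cells, 164 to 181, 161 to 178 and 159 to 174 for plasma cells, 12.2 to 16.0, 9.24 to 13.0 and 7.15 to 15.1 for T cells, 10.5 to 21.7, 9.51 to 12.5 and 4.65 to 11.9 for platelets, 82.5 to 94.6, 77.0 to 88.7 and 64.4 to 92.2 for conventional dendritic cells, and 793 to 942, 898 to 1219.6 and 834 to 954 for red pulp macrophages.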

Additional observations from a re-analysis of the deposited data

How the results depend on the processing

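The call of Rwdd3 in Van against Con, 1 of the 10 genes, became 0 with edgeR (adjusted p = 0.179), without independent filtering (0.0541) and with limma in all 3 forms, and 0 with only the 2 groups compared and with VanLip fragments thinned, where it had no adjusted p. With 1 library left out it was 0 to 1, and in both contrasts with VanLip 0 to 0. The related genes called in Van against Con were 2, and 1 with edgeR, 12 with only the 2 groups compared, 0 with limma on log2(FPKM + 1), 0 on log2(FPKM + 0.1), 0 with the FPKM filter, and 1 to 7 with 1 library left out. In VanLip against Con the 10 calls were 2 with edgeR, 6 with only the 2 groups compared, 2, 0 and 1 with limma in the same order, and 3 to 14 with 1 library left out. In VanLip against Van the 12 were 5 with edgeR, 8 with only the 2 groups compared, 3, 1 and 7 with limma, and 8 to 14 with 1 library left out. The count of genes lower in Van and then higher in VanLip was 8 to 9 with 1 library left out, 10 with limma on log2(FPKM + 1) or log2(FPKM + 0.1), and 8 with the FPKM filter, which removed Rwdd3 and Adora3. With a replicate block, Rwdd3 had a log2 fold change of -1.79 and lost its call (adjusted p = 0.116, 0 of 10 called), and the related genes called were 1, 8 and 10, beside 3.66%, 4.50% and 6.71% of all genes. On log2(FPKM + 1) the Rwdd3 change shrank to -0.46, since its FPKM is under the pseudocount in nearly all libraries. The cause of the other changes was not tested. Depth limits Adora3 and Rwdd3, and 3 mice per group limit all contrasts.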
